A study of Homo sapiens with 4 samples.

Results

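The miR-379 to miR-656 cluster is a long run of miRNA genes in the imprinted region 14q32 of human chromosome 14. It was followed here through 59 mature miRNAs, taken by name from a table of 2656 mature miRNAs counted by small RNA-seq in neural cells derived from human embryonic stem cells. All 59 names were found in the table. The study asked which miRNAs change when such cells are exposed to ethanol. H1 cells, an established embryonic stem cell line, had been differentiated into cortical interneurons, and 2 cultures were kept in maturation medium with about 50 to 100 mM ethanol for 7 days while 2 cultures received none. Per the study's methods, a further period without ethanol followed before RNA was collected, so all 4 libraries come from 1 cell line, and the exposed ones from cells already out of ethanol.

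Imprinted genes are expressed from the chromosome of 1 parent, and this miRNA cluster is expressed from the maternal copy, together with the long noncoding RNAs MEG3 (its upstream neighbour), MEG8 and MEG9. The precursors are thought to be cut from long shared transcripts, and in neurons their transcription is known to respond to activity through the factor MEF2. A precursor is a hairpin, and either of its strands, the 5p or the 3p arm, can become the mature miRNA that pairs with mRNAs through its seed, bases 2 to 8. Several members have known roles in neurons. miR-134 restrains dendritic spine growth by repressing the kinase LIMK1, miR-485 represses the synaptic vesicle protein SV2A, miR-543, miR-369 and miR-496 repress N-cadherin in neural progenitors, and the miR-376 precursors are edited by the ADAR enzymes.

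RefSeq sequences on GRCh38.p14 were matched by name to 58 of the 59 members. These 58 lie on the plus strand within 44.7 kb, chr14:101022071-101066786, in 40 precursors. In the GENCODE 29 annotation of the same build, 18 of the 58 lie in introns of MEG8, 8 in introns of MIR381HG, 8 in introns of MEG9 and 1, miR-410-3p, in an exon of MEG9, while 23 fall between annotated genes. For miR-329-3p, miR-376a-3p and miR-1185-5p 2 precursors give the same mature sequence, so their reads cannot be assigned to 1 copy. Coordinates come from the reference alone. The deposited counts carry none, and the submitters' processing notes name an older build, hg19.

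The 5 most abundant members are shown first because they hold most of the cluster's reads, with the seed in capitals. The prefix hsa marks human miRNAs and is left out below.
hsa-miR-323a-3p: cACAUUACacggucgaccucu
hsa-miR-379-5p: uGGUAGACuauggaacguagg
hsa-miR-543: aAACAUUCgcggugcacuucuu
hsa-miR-409-3p: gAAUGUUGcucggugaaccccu
hsa-miR-382-5p: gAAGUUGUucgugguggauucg
No 2 of these 5 share a seed. Over the 58 members with a sequence there were 51 distinct seeds. In 7 cases 2 members shared 1 seed, and none of these 7 seeds occurred in a human mature miRNA of the reference outside the cluster.

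Members that are near copies of each other are shown next, because reads of one can be counted for the other. The members of the first 3 pairs share a seed, again in capitals.
hsa-miR-1185-1-3p: aUAUACAGggggagacucuuau
hsa-miR-1185-2-3p: aUAUACAGggggagacucucau
hsa-miR-379-3p: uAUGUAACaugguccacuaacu
hsa-miR-411-3p: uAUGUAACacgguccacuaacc
hsa-miR-376a-3p: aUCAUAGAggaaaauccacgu
hsa-miR-376b-3p: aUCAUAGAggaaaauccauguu
hsa-miR-376c-3p: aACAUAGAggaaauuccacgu
With positions counted from 1 at the 5′ end, the miR-1185 pair differed by U20C, from miR-1185-1-3p to miR-1185-2-3p. The pair miR-379-3p and miR-411-3p differed by U10C and U22C, in that order of names. miR-376a-3p and miR-376c-3p differed by U2A, within the seed, and A14U. Values of these members are therefore uncertain where reads could be split between copies. In all, 7 pairs of members lay within 3 edits of each other, miR-323a-3p and miR-323b-3p among them.

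The hairpin of miR-485 is printed whole because both of its arms were abundant, as described with the arms below. It lies at chr14:101055419-101055491, between annotated genes, and its capitals mark the 5p and then the 3p mature arm.
MIR485: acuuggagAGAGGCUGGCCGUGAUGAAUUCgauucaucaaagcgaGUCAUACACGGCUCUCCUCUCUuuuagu

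The 4 libraries held 12100425 to 24858230 counts, with both exposed libraries deeper than both unexposed ones, so that depth and exposure cannot be told apart. Levels are given as CPM, the counts of a miRNA divided by those of its library and multiplied to a common size, after scaling by TMM, a factor per library that makes most miRNAs equal on average (here 0.846 to 1.13). Each of the 8 neuronal marker miRNAs listed for the check of cell type was detected in every library. Together they took 23.1% to 25.2% of the counts, but miR-9-5p alone made up 71.9% to 86.3% of that sum. Some of the 8 were far lower, with miR-137-3p and miR-138-5p at 39.2 to 84.8 CPM. The 5 markers of pluripotent stem cells summed to 27 to 47 counts a library, with miR-367-3p at 0, and the leukocyte markers miR-142-3p and miR-223-3p were at 0 throughout. Not every marker of another tissue was low, since the endothelial miR-126-3p stood at 801 to 1012 CPM and the muscle miR-1-3p at 175 to 401 CPM. The epithelial miR-200c-3p (53.7 to 111 CPM), the mesenchymal miR-143-3p (54.8 to 86.9 CPM) and the oligodendrocyte miR-219a-2-3p (71.8 to 113 CPM) were no lower than miR-138-5p. Every other epithelial, mesenchymal or oligodendrocyte marker listed was lower than these. Cells of other kinds within the cultures, fewer expressing cells and less RNA per cell cannot be told apart in such bulk libraries.

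The cluster was a minor part of the miRNA of these cells. Its 59 members together took 0.0645% of the counts in exposed culture 1 and 0.0515% in exposed culture 2. In the unexposed cultures the share was 0.0357% in culture 1 and 0.0841% in culture 2. The Wilson 95% interval of the lowest share ran from 0.0347% to 0.0367% and that of the highest from 0.0825% to 0.0857%, so the distance between the 2 unexposed cultures was larger than counting error. Intervals of this kind cover counting error only, since reads without molecular identifiers are not independent molecules.

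Within the cluster the levels spanned several orders of magnitude. Of the 59 members, 15 had a mean level above 10 CPM, 14 had 1 to 10 CPM and 30 had less than 1 CPM. The most abundant, miR-323a-3p, was still below 155 other miRNAs of the table. The 5 most abundant members took 56.2% to 60.2% of the cluster's counts in each library and the top 10 took 74.8% to 77.1%. These shares moved less between libraries than the total did. Comparisons of level between different miRNAs also carry the unequal efficiency with which small RNAs are ligated and copied.

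miR-323a-3p, from an intron of MEG8 (chr14:101025782-101025802), stood at 159 and 125 CPM in the exposed cultures and at 85.7 and 156 CPM in the unexposed ones. It alone made up 19.8% to 27.9% of the cluster's counts. Unexposed culture 1 was the lowest of the 4, and unexposed culture 2 lay within the range of the exposed pair. miR-379-5p, at the start of the cluster (chr14:101022071-101022091), varied least between libraries among the 10 most abundant members (highest over lowest), at 58.9 and 58.1 CPM in exposed and 64.4 and 74.8 CPM in unexposed cells. miR-543 was measured at 41.4 and 42.5 CPM in the exposed cultures, and at 25.9 and 109 CPM in the unexposed ones. The exposed pair was nearly equal here, while the unexposed pair lay on either side of it. miR-409-3p, from an intron of MEG9, had the same arrangement less widely, with 37.5 and 44.9 CPM against 36.7 and 86.6 CPM.

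The next members by level were the 2 arms of miR-382 and the single arms of miR-323b, miR-134, miR-381 and miR-411. miR-382-5p stood at 30.7 and 38.6 CPM (exposed) and 24.3 and 49.7 CPM (unexposed). miR-323b-3p had 35.7 and 23.6 CPM with ethanol and 17.9 and 43.7 CPM without. In both, the 2 unexposed cultures were the lowest and the highest of the 4. miR-134-5p, the repressor of LIMK1, gave 23.5 and 20.7 CPM in exposed cells and 17.0 and 32.1 CPM in unexposed cells. miR-382-3p was at 16.5 and 19.3 CPM in the exposed pair and 17.6 and 22.5 CPM in the unexposed pair. For miR-381-3p, which with miR-134 is linked to dendrite growth, the values were 16.6 and 13.8 CPM against 13.3 and 18.6 CPM. miR-411-5p, whose precursor follows miR-379 on the DNA, was at 14.8 and 11.7 CPM against 12.8 and 16.7 CPM. In each of these 4 members too, unexposed culture 2 was the highest library. miR-495-3p and miR-889-3p came close behind.

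**Figure D1:**
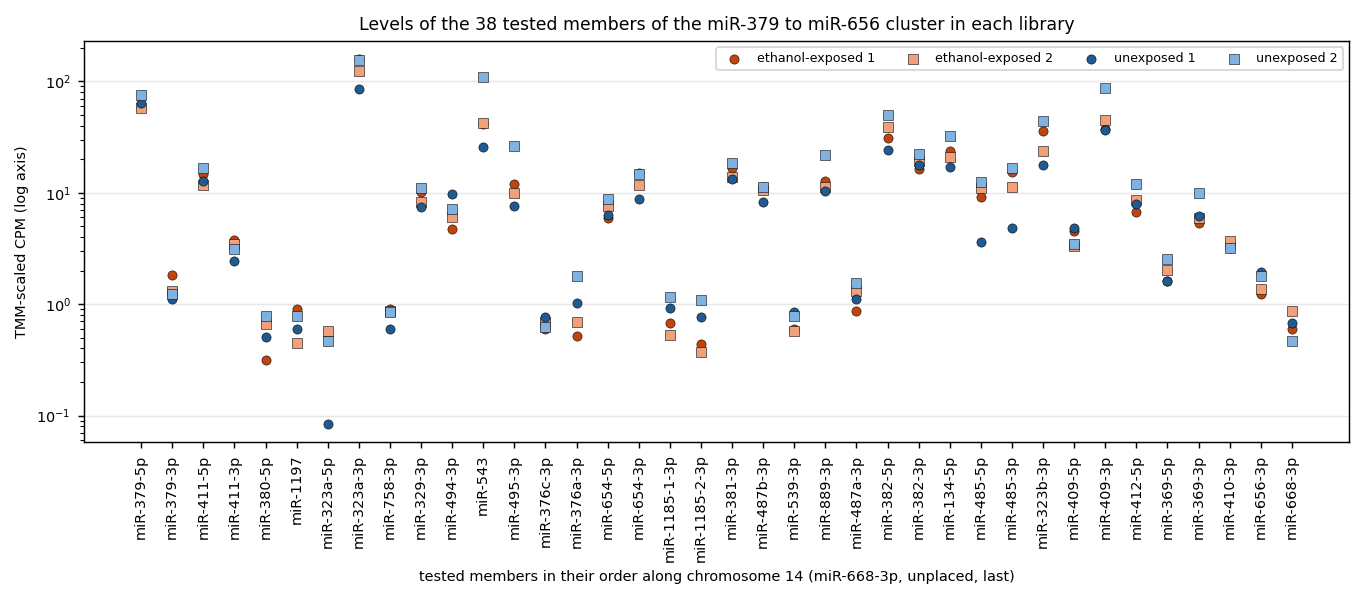
TMM-scaled CPM (log axis) of the 38 members that passed the filter on low counts, in their order along the chromosome (miR-668-3p, which has no position here, last), with 1 symbol per library (red circle and orange square, exposed 1 and 2; dark and light blue, unexposed 1 and 2). Levels run from below 1 CPM to 159 CPM for miR-323a-3p, and the light blue squares of unexposed culture 2 are the highest of the 4 symbols for 23 members.

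At the other end, 5 members had no count in any library. These were miR-154-3p, miR-300, miR-495-5p, miR-541-5p and miR-544a. A count of 0 allows a level of up to 0.121 to 0.248 CPM on library size alone, depending on its depth (3 counts of the total). A further 16 members were seen but did not pass the filter, which asks for at least 0.553 CPM on library size alone in 2 libraries. The largest of them were miR-541-3p with 40 counts over the 4 libraries, miR-539-5p with 36, miR-299-3p with 21, miR-380-3p with 18 and miR-496 with 16. miR-377-5p had 14 counts, miR-299-5p 12, miR-154-5p 11 and miR-655-3p 6. The rest were miR-376a-5p and miR-758-5p with 5 each, miR-134-3p with 4, miR-377-3p and miR-1185-5p with 2 each, and miR-376b-3p and miR-381-5p with 1 each. Among them are the minor arms of miR-134, miR-381, miR-539 and miR-758, whose other arm was tested. In all, 47 of the 59 members had at least 1 count in every library, and 38 were tested.

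Between exposed and unexposed cells the members were called at close to the rate of all tested miRNAs, and none was called after adjustment. Of the 38 tested members, 2 had an unadjusted P under 0.05 in edgeR's quasi-likelihood test over all 863 tested miRNAs, which is 5.26% of the members beside 4.52% of all tested miRNAs. Both fell, and both by more than 2-fold, a criterion that 2.32% of all tested miRNAs met with that P in either direction. With no limit on the fold, 1.97% of all tested miRNAs had that P and were lower. After Benjamini-Hochberg adjustment none of the 38 had an adjusted p under 0.05, as none of the 863 had (0.0%), and the smallest adjusted p of a member was 0.922 in edgeR. At the unadjusted threshold limma-voom also called 2 members and DESeq2 called 0, where those tools called 3.59% and 3.24% of all tested miRNAs.

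The 2 members with a lower level were scarce ones. miR-376a-3p, whose seed differs from that of miR-376c-3p by the base noted above, had 13 and 17 counts in the exposed libraries and 12 and 23 counts in the shallower unexposed ones. That corresponds to 0.516 and 0.698 CPM against 1.02 and 1.79 CPM, and the groups did not overlap. Its log2 fold change, exposed minus unexposed, was -1.21 with a standard error of 0.427 (edgeR, unadjusted P = 0.0223). Its counting intervals were wide beside that distance. On library size alone the share of exposed culture 2 had a Wilson 95% interval of 0.427 to 1.1 CPM, and that of unexposed culture 1 one of 0.492 to 1.5 CPM. Without unexposed culture 2 the log2 fold change was -0.78 and no longer passed the threshold, nor did it without exposed culture 1, at -1.01.

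miR-1185-2-3p had 11 and 9 counts in the exposed libraries and 9 and 14 in the unexposed ones, or 0.436 and 0.370 CPM against 0.763 and 1.09 CPM. Its log2 fold change was -1.19 with a standard error of 0.438 (edgeR, unadjusted P = 0.0268). The groups did not overlap here either. On library size alone it stood at 0.495 and 0.362 CPM in exposed and at 0.646 and 1.16 CPM in unexposed libraries. It thus passed the filter through the unexposed libraries only, so neither the call nor the lack of overlap is independent of the filter. Its near copy miR-1185-1-3p, which differs by the 1 base given above, stood at 0.674 and 0.534 CPM against 0.933 and 1.17 CPM, and its log2 fold change was -0.79 (standard error 0.397). Reads of these 2 members may have been split between them. Leaving out exposed culture 1, exposed culture 2 or unexposed culture 2 each ended that call, with log2 fold changes of -1.31, -1.07 and -0.95.

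The remaining members at the lower end were miR-543, whose log2 fold change was -0.68 (edgeR standard error 0.553), and miR-494-3p, at -0.65 (standard error 0.317, edgeR unadjusted P = 0.0747). miR-494-3p passed that threshold under upper quartile scaling, at -0.75. miR-494-3p was at 4.72 and 6.08 CPM in exposed cells and at 9.83 and 7.15 CPM in unexposed cells. It was one of the few members that were lower in unexposed culture 2 than in unexposed culture 1, and its groups did not overlap.

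At the upper end stood miR-323a-5p, the minor arm of the most abundant member. It had 13 and 14 counts in exposed libraries and 1 and 6 counts in unexposed ones. On library size alone that was 0.585 and 0.563 CPM against 0.0717 and 0.496 CPM. It thus passed the filter through the exposed libraries only, so its place here and its lack of overlap are not independent of the filter. Its log2 fold change was 0.93 (standard error 0.656). It was 0.22 without unexposed culture 1 and 2.57 without unexposed culture 2. miR-379-3p followed with 0.42, at 1.82 and 1.31 CPM against 1.10 and 1.24 CPM, and miR-411-3p, its near copy, with 0.36, at 3.73 and 3.45 CPM against 2.46 and 3.11 CPM. In each of these 3 minor arms the groups did not overlap, but the edgeR test was not passed. miR-668-3p had 0.35, from 0.595 and 0.863 CPM against 0.678 and 0.466 CPM, and miR-485-5p had 0.32, from 9.20 and 11.01 CPM against 3.65 and 12.4 CPM. The last 2 overlapped between groups.

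The study followed miR-412-5p, from an intron of MEG9, in brain tissue. For these exposed cells it described a decreasing trend of miR-412-5p, short of its own threshold, so the values here are not independent of that report. This miRNA was measured at 6.70 and 8.59 CPM in exposed cultures and 7.88 and 11.9 CPM in unexposed ones. The log2 fold change was -0.37 with a standard error of 0.324, and the groups overlapped. It was -0.64 without unexposed culture 1 and -0.08 without unexposed culture 2.

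Across the 38 tested members, 26 had a log2 fold change below 0 (68.4%, beside 51.2% of all tested miRNAs) and 12 above it. With scaling to library size alone 21 were below 0 (55.3%, beside 34.2%). The median was -0.15 on the log2 scale, where the median of all tested miRNAs was -0.01, and the quartiles of the members were -0.45 and 0.18. Single standard errors ran from 0.233 to 0.656. The groups did not overlap for 13 members (34.2%, beside 33.4% of all tested miRNAs), with 8 of these lower in exposed cells (14.6% of all tested miRNAs) and 5 higher (18.8%). Among these 13, miR-1185-2-3p and miR-323a-5p passed the filter only through the group where each was higher. The sign of the median rested on unexposed culture 2. Without that library the median was 0.14, with 15 of 40 tested members below 0, and without unexposed culture 1 it was -0.40, with 32 of 40 below 0.

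**Figure D2:**
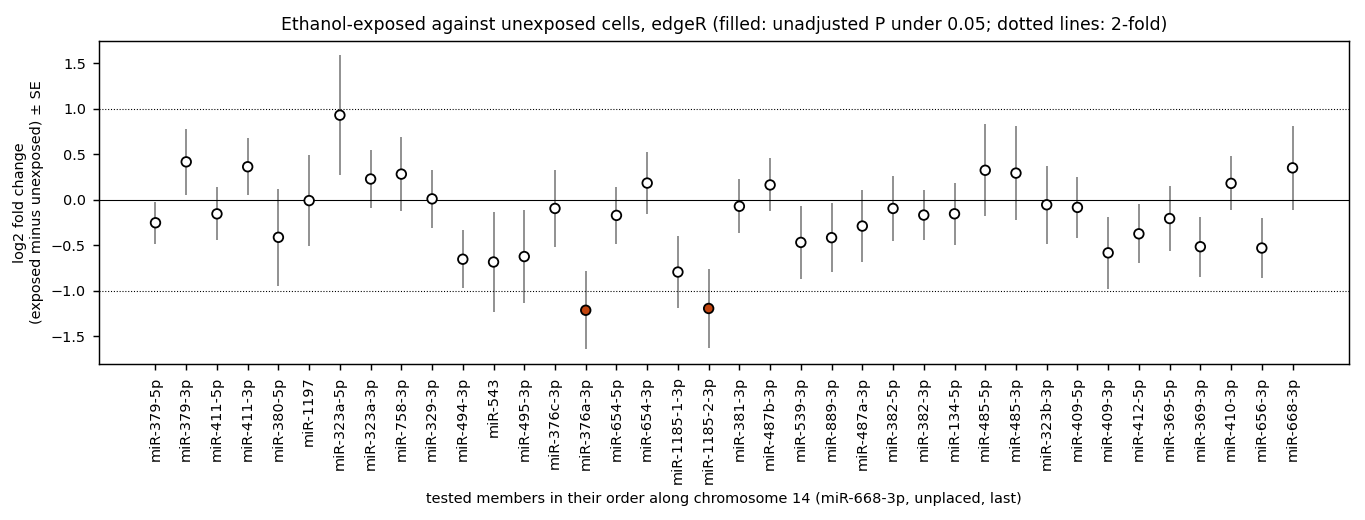
Log2 fold change (exposed minus unexposed, edgeR) of the 38 tested members in their order along the chromosome (miR-668-3p, which has no position here, last), with bars of 1 standard error; filled circles mark an unadjusted P under 0.05 and dotted lines a 2-fold difference. Only miR-376a-3p (-1.21) and miR-1185-2-3p (-1.19) are filled, and 26 of the 38 circles lie below 0.

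Leaving out either unexposed library raised the number of calls. With unexposed culture 1 left out, 8 of 40 tested members had an unadjusted P under 0.05 (beside 10.1% of the miRNAs tested in that fit), all of them lower in exposed cells. They were miR-543, miR-495-3p, miR-409-3p, miR-376a-3p, miR-541-3p, miR-889-3p, miR-369-3p and miR-1185-2-3p. With unexposed culture 2 left out instead, 6 of 40 passed (beside 11.4%), and 5 of the 6 were higher in exposed cells. Those 5 were miR-485-3p, miR-485-5p, miR-323a-3p, miR-323b-3p and miR-543, and the member that was lower was miR-494-3p, at -0.90. miR-543 was therefore called in both fits with opposite signs, at -1.38 without unexposed culture 1 and 0.66 without unexposed culture 2. After adjustment 3 members (without unexposed culture 1, beside 1.84% of the miRNAs tested) and 2 members (without unexposed culture 2, beside 1.57%) had an adjusted p under 0.05 in edgeR. In each of these fits the lone unexposed library is assumed to vary as the exposed pair does. With 1 library left in a group, unexposed or exposed, the filter asks for its level in 1 library only. miR-541-3p, which did not pass with all 4 libraries, could therefore enter. Without exposed culture 1 it entered through unexposed culture 2 alone, where it was highest (17 counts, beside 6 in exposed culture 2 and 5 in unexposed culture 1). Its call in that fit is thus not independent of the filter. Leaving out exposed culture 1 left 1 member called, miR-541-3p (2.63%, beside 1.42%), and leaving out exposed culture 2 left miR-376a-3p (2.7%, beside 4.94%).

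The summed level of the 59 members followed suit. It was 569 and 525 CPM in the exposed cultures and 422 and 791 CPM in the unexposed ones. The group means were 547 ± 30.6 CPM (SD, 2 cultures) with ethanol and 606 ± 261 CPM (SD, 2 cultures) without. On the log2 scale the difference, exposed minus unexposed, was -0.08, and a two-sided exact permutation test gave p = 1.0, where 2 cultures against 2 cannot give less than 0.333. Both exposed cultures lay between the 2 unexposed ones. Without unexposed culture 2 the difference was 0.34, without unexposed culture 1 it was -0.54, and with scaling to library size alone it was 0.07.

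**Figure D3:**
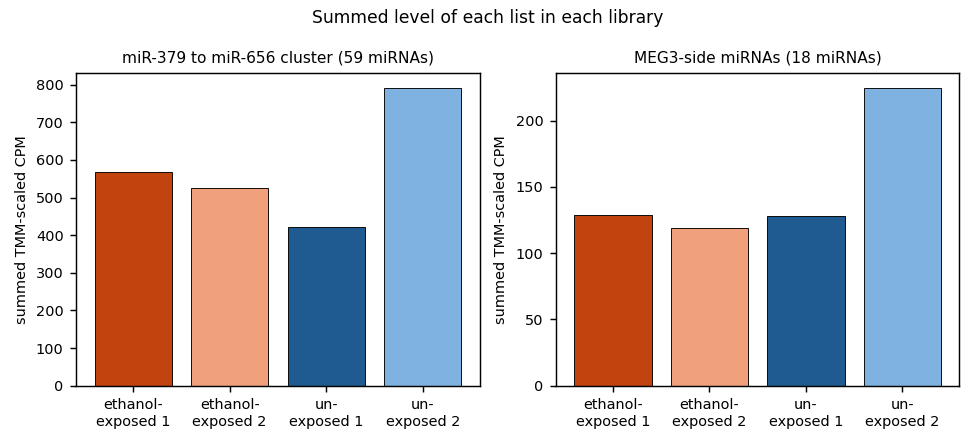
Summed TMM-scaled CPM of the 59 cluster members (left) and of 18 miRNAs on the MEG3 side of the region (right), 1 bar per library from 0. Unexposed culture 2 has the tallest bar in both panels (791 and 225 CPM), and both exposed cultures fall between the 2 unexposed ones on the left.

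Most members differed in the same direction between the 2 unexposed cultures. Of the 38 tested members, 31 were higher in unexposed culture 2 than in unexposed culture 1 (81.6%, beside 52.1% of all tested miRNAs). The median difference was 0.49 on the log2 scale of TMM-scaled CPM, against 0.03 over all tested miRNAs. In the exposed cultures the members were near the background. There, 20 of 38 members were higher in culture 1 than in culture 2 (52.6%, beside 54.6%), with a median difference of 0.03 against 0.05 over all. With scaling to library size only, 35 of 38 members were higher in unexposed culture 2 (92.1%, beside 72.3%) and 25 of 38 in exposed culture 1 (65.8%, beside 73.0%). No test was made of these shares, since the members share transcripts and each difference is between 2 single libraries.

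Taken by library, unexposed culture 2 was the highest of the 4 for 23 of the 38 members (60.5%, beside 29.4%), and unexposed culture 1 was the lowest for 18 (47.4%, beside 31.2%). The summed cluster was 1.87-fold higher in unexposed culture 2 than in culture 1, and 1.08-fold higher in exposed culture 1 than in exposed culture 2. In the same unexposed pair the summed neuronal markers were at 0.738 of the level of culture 1, a difference that lay mainly in miR-9-5p. Also lower in culture 2 were miR-124-3p (2948 and 2190 CPM), miR-137-3p (83.8 and 58.3 CPM) and miR-138-5p (61.9 and 39.2 CPM). The other neuronal markers, miR-128-3p, miR-129-5p, miR-132-3p and miR-218-5p, were higher in culture 2. The 3 oligodendrocyte markers, nearly all miR-219a-2-3p, were 1.52-fold higher, with sums of 75.7 and 95.8 CPM in exposed and 76.0 and 116 CPM in unexposed cells. The 5 stem cell markers were 1.43-fold higher, at 2.29 and 3.26 CPM. The sums of the other lists were at 0.618 (epithelial), 0.673 (liver and muscle), 0.901 (blood and endothelial) and 1.03 (mesenchymal) of their level in culture 1. The liver and muscle sum was mostly miR-1-3p, while the liver marker miR-122-5p was higher in culture 2, at 16.5 and 41.7 CPM. The blood and endothelial sum was nearly all miR-126-3p. The part of these differences in that of the cluster was not tested.

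For 9 members the distance between the unexposed cultures exceeded 2-fold (23.7%, beside 9.15% of all tested miRNAs higher by that much). The largest was that of miR-543, 2.06 on the log2 scale, from 306 counts in culture 1 to 1398 in culture 2. miR-323a-5p followed with 1.99, but from 1 count to 6. Both arms of miR-485, the SV2A regulator, moved together, by 1.79 for the 3p arm (57 and 216 counts) and 1.76 for the 5p arm (43 and 160 counts). miR-495-3p, known to target BDNF, moved by 1.77 from 90 counts to 337. The other 4 were miR-323b-3p with 1.29, miR-409-3p with 1.24, miR-889-3p with 1.06 and miR-382-5p with 1.03. For miR-543 the Wilson 95% intervals of the library share, 19.6 to 24.5 and 110 to 122 CPM, were far apart, so the distance exceeded counting error.

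The other 7 tested members were lower in unexposed culture 2. The lowest were miR-668-3p, with a difference of -0.51 from 8 and 6 counts, miR-494-3p, with -0.46 from 116 and 92 counts, and miR-409-5p, with -0.46 from 57 and 45 counts. miR-376c-3p, miR-539-3p, miR-656-3p and miR-410-3p lay between -0.29 and -0.02. Position on the DNA gave no sharp border. In introns of MEG8, 12 of 13 tested members were higher in unexposed culture 2, between annotated genes 12 of 13, in MIR381HG 3 of 4 and in MEG9 4 of 7. The 2 last members of the cluster, miR-410-3p (38 and 41 counts) and miR-656-3p (23 and 23 counts), differed little between these cultures, although miR-409-3p, from the same host, differed by 1.24.

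**Figure D4:**
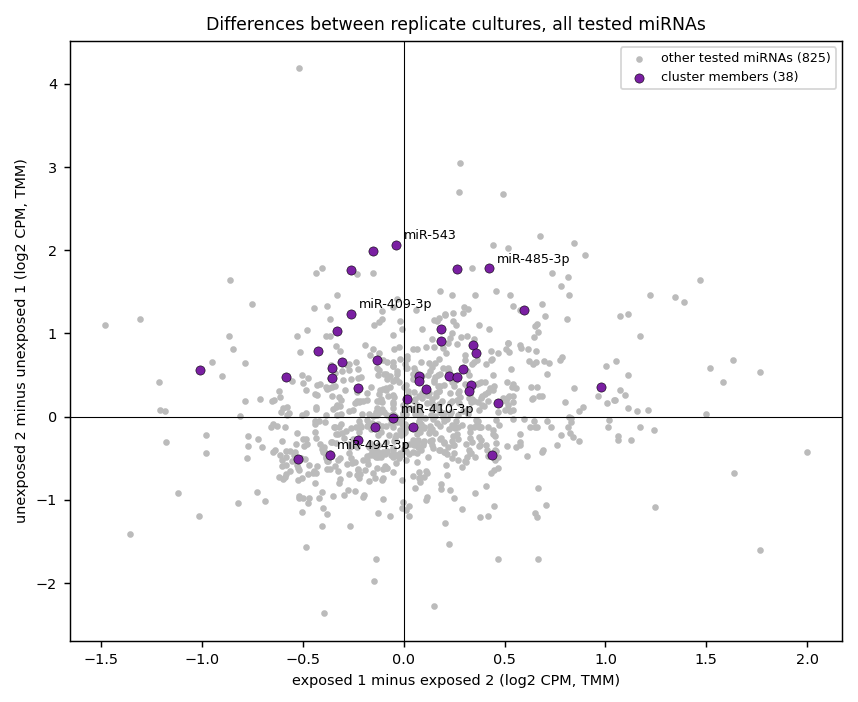
Each point is 1 of 863 tested miRNAs (purple, the 38 cluster members; grey, the other 825), placed by the difference between the 2 exposed cultures (x axis) and between the 2 unexposed cultures (y axis), both in log2 TMM-scaled CPM. The purple points are spread evenly about 0 on the x axis (20 of 38 above it) and lie mostly above 0 on the y axis (31 of 38), with miR-543 highest at 2.06.

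Both arms of a hairpin were present in the table for 32 precursors of the cluster, counting also arms that are not on the list of 59. Of these, 20 had at least 100 counts over the 4 libraries. The 3p arm was the larger in every library for 14 of the 20, the 5p arm for 5, and 1, miR-487a, was mixed. In 10 precursors both arms passed the filter, and 6 of these favoured 3p, 3 favoured 5p and 1 was mixed. Among all 195 tested pairs of the table, 44.1% favoured 3p, 47.7% favoured 5p and 8.21% were mixed.

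Some hairpins were almost one-sided. miR-134 gave 99.5% to 100.0% 5p, with 4 counts of the 3p arm in all, and miR-412 98.7% to 99.1% 5p. At the other extreme, the 5p share of miR-323a was 0.324% and 0.458% in exposed cultures and 0.0988% and 0.298% in unexposed ones, and miR-495 and miR-656 had no 5p count at all. The hairpin of miR-485 printed above was more balanced, with 37.7% and 49.3% 5p in exposed and 43.0% and 42.6% in unexposed cells. The 2 exposed cultures differed more from each other than either did from the unexposed pair. miR-382 ran at 65.1% and 66.7% 5p in exposed cells and 58.0% and 68.9% in unexposed cells, so that both of its arms are abundant.

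The use of the arms did not differ detectably with ethanol. The log2 ratio of 5p to 3p was compared by limma over 195 pairs of the whole table, with 0.5 added to each count. None of the 10 tested pairs of the cluster had an unadjusted P under 0.05, beside 2.05% of all pairs, and none of the 195 had an adjusted p under 0.05 (0.0%). A single pair was called when unexposed culture 1 was left out, miR-409 (beside 3.59% of all pairs), and another without unexposed culture 2, miR-487a (beside 10.8%). The 5p share did not overlap between groups for 5 of the 10, beside 28.2% of all 195 pairs. The largest change was in miR-323a, where the log2 ratio was higher by 0.87 in exposed cells (standard error 0.633), on few 5p counts. The 5p arm of miR-323a passed the filter through the exposed libraries only, so that rank is not independent of the filter. miR-487a, with 59.3% and 56.2% 5p in exposed and 31.6% and 54.5% in unexposed cells, followed with 0.84 (standard error 0.527). Its unexposed culture 1 held 19 counts of both arms, which leaves a Wilson 95% interval of 15.4% to 54.0%. The 2 neighbours at the start of the cluster went the other way. miR-379 had 97.0% and 97.8% 5p in exposed against 98.3% and 98.4% in unexposed cells, a log2 ratio lower by -0.62 (standard error 0.403), and miR-411 had 79.9% and 77.3% against 83.9% and 84.3%, at -0.51 (standard error 0.324).

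The arms of miR-409 behaved unlike those of miR-485 between the unexposed cultures. The 3p arm was higher in culture 2 and the 5p arm was lower, so that the 5p share was 11.6% in unexposed culture 1 (Wilson 95% interval 9.09% to 14.8%) and 3.88% in unexposed culture 2 (2.91% to 5.16%). The exposed cultures, at 10.8% and 6.90%, lay between them. These intervals do not touch, yet the difference is between 2 cultures of the same group.

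**Figure D5:**
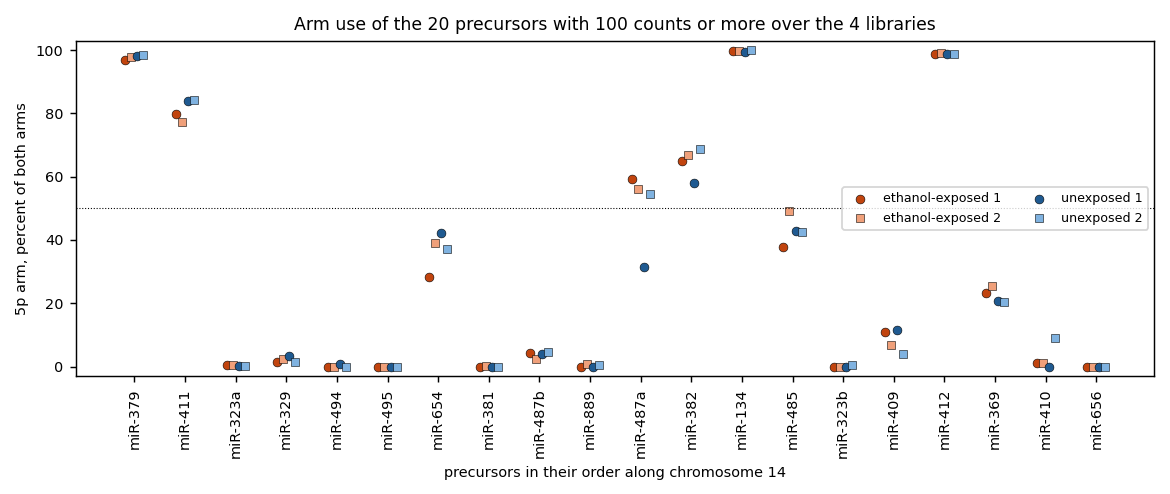
Share of the 5p arm, as a percent of the counts of both arms, in each of the 4 libraries for the 20 precursors with at least 100 counts, in their order along the chromosome; the dotted line marks 50%. The 3p arm is the larger in every library for 14 precursors, and only miR-487a has libraries on both sides of the line.

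The 18 miRNAs on the other side of the imprinted region, next to MEG3, were also highest in unexposed culture 2, while unexposed culture 1 was level with exposed culture 1. Their summed level was 128 and 119 CPM in exposed cultures and 128 and 225 CPM in unexposed ones, 1.75-fold higher in unexposed culture 2 than in culture 1. The log2 difference between groups was -0.46 (two-sided exact permutation p = 0.667). The most abundant, miR-127-3p, which lies antisense to the imprinted gene RTL1, stood at 57.6 and 47.9 CPM in exposed and 49.9 and 91.6 CPM in unexposed cells. Of the 7 that were tested, 6 were higher in unexposed culture 2 (85.7%, beside 52.1% of all tested miRNAs), with a median difference of 0.69. By exposure, 6 of the 7 had a log2 fold change below 0 (85.7%, beside 51.2% of all tested miRNAs), with a median of -0.45. Of the 7, 1 had an unadjusted P under 0.05 (14.3%, beside 4.52%). That was miR-493-5p, at 1.86 and 3.41 CPM in exposed and 4.66 and 9.17 CPM in unexposed cells, with a log2 fold change of -1.39 and a standard error of 0.441 (edgeR, unadjusted P = 0.0138). The groups did not overlap, and the adjusted p was not under 0.05. The number called changed when unexposed culture 1 was left out, a fit in which 11 of the 18 were tested.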

How the data were processed

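Small RNA-seq counts from 4 libraries, 2 of ethanol-exposed and 2 of unexposed H1-derived cortical interneurons, were analysed. The authors made the deposited counts (whole reads per mature miRNA, not normalized) with the CAP-miRseq workflow; the submitters' processing notes name hg19, and the miRNA annotation release and the treatment of reads that match several miRNAs are not given in the sources used here. Libraries were NEBNext, without molecular identifiers. No columns were left out. Groups and replicate numbers came from the sample titles. Treatments were done in duplicate, and nothing ties a culture to a separate differentiation, so p-values measure the spread between these cultures only.

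From the counts, edgeR 4.0.16 (filterByExpr with at least 10 counts and a total of at least 15, TMM, quasi-likelihood test, Benjamini-Hochberg over 863 miRNAs) gave log2 fold changes, exposed minus unexposed. In the fit of all 4 libraries the filter turns the 10 counts into a CPM at the median library size (0.553). At least 2 libraries must reach it, so a miRNA high in 1 group only can pass. In edgeR fits that left out 1 library the filter was run anew at the median size of those that remained. There 1 library sufficed, and 845 to 977 miRNAs were tested. Arm ratios were tested by limma 3.58.1. Alternatives were DESeq2 1.42.0, limma-voom, other scalings and filters, replicate blocks and leaving out each library. Scripts were tested on simulated data. Differences between libraries are on log2 CPM with 0.5 added to each count.

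The members and lists were chosen with earlier results of these data known. Values in every library are given for the 10 most abundant members, those with an unadjusted P under 0.05, the 5 highest and 5 lowest log2 fold changes, miR-412-5p and the arm pairs with the highest, lowest and most changed 5p share; of the MEG3-side list, those with an unadjusted P under 0.05 and the most abundant are named. Other members were named after their values were seen.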

Additional observations from a re-analysis of the deposited data

How the results depend on the processing

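Main values were 2 called members, a median log2 fold change of -0.15, a summed difference of -0.08, 0 called arm pairs and 1 called MEG3-side miRNA. The median was -0.03 by library size and -0.27 by upper quartile scaling, where the median of all tested miRNAs moved from -0.01 to 0.14 and -0.12, so that the members lay -0.18 to -0.14 from it under the 5 scalings tried. DESeq2 called 0 members (beside 3.24% of all tested miRNAs), upper quartile scaling 3 and library size scaling 1. A filter of at least 10 counts in every library called 1 of 31, and 1 count in any library 4 of 54. For these scalings and filters, and for the blocks below, the share of all tested miRNAs is not given here. Those counts, of members, MEG3-side miRNAs or arm pairs, therefore cannot be set against the background. Leaving out 1 library gave 1 to 8 members, 0 to 1 arm pairs and 1 to 5 MEG3-side miRNAs, medians of -0.40 to 0.14 and summed differences of -0.54 to 0.34, with the positive values without unexposed culture 2. Upper quartile scaling, or 1 count in any library, called 2 MEG3-side miRNAs, and 1 count of each arm gave 1 arm pair. The summed difference was 0.073 by library size. The difference of culture 1 minus culture 2 in exposed cells had a correlation of -0.186 with that in unexposed cells, over 863 miRNAs. Each difference is between 2 single libraries, so this cannot tell whether same-numbered cultures were handled together. With the replicate block 2 members were called (median -0.12) and the crossed pairing, chosen after seeing the data, called 3; same-numbered summed differences were 0.43 and -0.59.

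Among named members, the log2 fold change of miR-323b-3p turned to 0.051 under limma-voom, 0.049 by library size, 0.049 with the replicate block and 0.050 with the crossed pairing, and that of miR-381-3p to 0.061 by library size. Leaving out 1 library gave these ranges, which cross 0: miR-134-5p -0.54 to 0.34, miR-323a-3p -0.14 to 0.69, miR-323b-3p -0.56 to 0.69, miR-381-3p -0.29 to 0.15, miR-382-5p -0.53 to 0.48, miR-409-3p -1.08 to 0.13, miR-411-5p -0.34 to 0.014, miR-485-5p -0.31 to 1.43 and miR-543 -1.38 to 0.66. The cause was not tested. Depth limits members below about 1 CPM, which rest on few counts.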

Other observations

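The table also held 15 mature arms of the same precursors, or of miR-1193, that are not on the list of 59. Only miR-487a-5p and miR-487b-5p passed the filter. miR-487a-5p had 32 and 41 counts in the exposed libraries and 6 and 24 counts in the unexposed ones, with a log2 fold change of 0.29 and a standard error of 0.527. miR-487b-5p had 13 and 6 counts against 4 and 7. miR-329-5p had 4 and 5 counts against 3 and 2, and miR-1193 had a single count, in unexposed culture 2. With all 15 arms added, the share of the cluster was 0.0648% and 0.0517% in exposed and 0.0358% and 0.0844% in unexposed libraries.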
